A study of Mus musculus with 6 samples.

Results

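The Hippo pathway genes followed here were Yap1, Wwtr1, Tead1, Tead2, Tead3, Tead4, Lats1, Lats2, Stk3 and Amotl2, 10 of the 23420 genes in a table of RNA levels from mouse embryonic lungs. They were chosen by name, as the rows whose gene symbol was one of these 10, and all 10 were found. All 10 also passed the filter on low values (3 or more libraries with a normalized count of 1 or above), which left 17168 genes. The TAZ coactivator is listed under its gene symbol Wwtr1. A separate row named Taz, the X-linked tafazzin gene, is unrelated to Hippo signaling and was not used.

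Whole lungs were collected at E11.5dpc (embryonic age in days post coitus) from control embryos and from mutant embryos, Rptor f/f; ShhCre/+. For controls of this stage a supplementary figure of the paper gives the label ShhCre/+. The paper's methods name Rptor f/+; ShhCre/+ for control littermates of a later stage and give no control genotype for this one. Rptor encodes the scaffold protein of mTOR complex 1 (mTORC1). Cre was expressed from the Shh locus, which is active in the lung epithelium. With either control genotype both groups carried the Cre allele, and only the mutants could lose Rptor from both copies. There were 3 libraries per group, each a pool of several lungs. The question was how transcript levels differ between lungs with and without epithelial mTORC1 signaling. The lungs also held mesenchyme, mesothelium, endothelium and blood, outside the epithelium in which Cre acts.

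Hippo signaling is a kinase cascade that restrains organ growth. The MST kinases (Stk3 encodes MST2) phosphorylate and activate the LATS kinases, which phosphorylate the coactivators YAP and TAZ and so keep them out of the nucleus. Unphosphorylated YAP and TAZ enter the nucleus, where they bind DNA through the TEAD factors and activate genes such as Ccn1, Ccn2 and Ankrd1. In the embryonic lung epithelium the pathway takes part in branching and in the formation of proximal airway cells. Because the pathway acts through phosphorylation and location of proteins, RNA levels measure how much transcript of each component there was and not whether the pathway was active.

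TEAD factors recognise a short core, GGAATG or its reverse complement CATTCC, and this core was searched on both strands in RefSeq promoter windows (assembly GRCm38.p6, from 250 bases before to 50 bases after each annotated start). The windows below are those of both coactivator genes and of Amotl2 and Lats2, pathway genes that are also YAP/TAZ targets. They also include the classical targets Ankrd1 and Ccn1, and Myof, a target whose RNA rose in the mutant pools. Bases in capitals are the matches to the core. The windows lie at chr9:8004547-8004846 (- strand) for Yap1, chr3:57575827-57576126 (- strand) for Wwtr1, chr9:102717554-102717853 (+ strand) for Amotl2, chr14:57746074-57746373 (- strand) for Lats2, chr19:36119795-36120094 (- strand) for Ankrd1, chr3:145649936-145650235 (- strand) for Ccn1 and chr19:38043528-38043827 (- strand) for Myof. Each is printed 5′ to 3′ along its gene and holds upstream sequence followed by the first transcribed bases.
Yap1: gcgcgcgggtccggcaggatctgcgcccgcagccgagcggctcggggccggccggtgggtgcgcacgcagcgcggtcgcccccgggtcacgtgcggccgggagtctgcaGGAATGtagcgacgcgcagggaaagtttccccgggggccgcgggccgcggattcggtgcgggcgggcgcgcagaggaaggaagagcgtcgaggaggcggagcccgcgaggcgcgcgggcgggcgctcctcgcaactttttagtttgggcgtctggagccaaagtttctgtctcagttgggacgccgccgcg
Wwtr1: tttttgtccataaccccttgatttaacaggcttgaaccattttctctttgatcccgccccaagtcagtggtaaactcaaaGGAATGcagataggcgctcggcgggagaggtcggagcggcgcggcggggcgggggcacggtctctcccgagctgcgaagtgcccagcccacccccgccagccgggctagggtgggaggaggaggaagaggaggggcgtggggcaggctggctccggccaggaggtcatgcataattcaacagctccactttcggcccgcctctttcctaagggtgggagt
Amotl2: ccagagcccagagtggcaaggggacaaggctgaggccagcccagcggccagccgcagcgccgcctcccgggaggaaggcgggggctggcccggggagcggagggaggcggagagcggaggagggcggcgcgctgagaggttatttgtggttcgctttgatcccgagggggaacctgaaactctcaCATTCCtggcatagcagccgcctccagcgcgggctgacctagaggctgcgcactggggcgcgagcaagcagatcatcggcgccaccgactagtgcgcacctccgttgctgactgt
Lats2: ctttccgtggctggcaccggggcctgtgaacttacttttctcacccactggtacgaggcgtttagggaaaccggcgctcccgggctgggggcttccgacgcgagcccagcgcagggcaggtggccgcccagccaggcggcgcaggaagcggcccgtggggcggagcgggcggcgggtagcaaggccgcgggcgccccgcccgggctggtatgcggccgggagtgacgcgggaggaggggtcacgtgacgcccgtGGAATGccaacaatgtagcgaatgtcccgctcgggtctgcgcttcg
Ankrd1: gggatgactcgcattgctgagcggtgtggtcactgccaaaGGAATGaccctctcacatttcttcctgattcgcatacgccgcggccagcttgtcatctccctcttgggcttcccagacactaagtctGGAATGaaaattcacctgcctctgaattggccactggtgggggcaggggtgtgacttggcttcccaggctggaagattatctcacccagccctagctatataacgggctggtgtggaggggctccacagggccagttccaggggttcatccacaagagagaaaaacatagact
Ccn1: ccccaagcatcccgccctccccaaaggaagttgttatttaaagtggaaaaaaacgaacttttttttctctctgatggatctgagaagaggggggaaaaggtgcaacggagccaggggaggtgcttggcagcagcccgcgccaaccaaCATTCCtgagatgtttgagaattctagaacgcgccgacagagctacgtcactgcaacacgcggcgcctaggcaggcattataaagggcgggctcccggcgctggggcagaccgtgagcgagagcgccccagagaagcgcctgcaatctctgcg
Myof: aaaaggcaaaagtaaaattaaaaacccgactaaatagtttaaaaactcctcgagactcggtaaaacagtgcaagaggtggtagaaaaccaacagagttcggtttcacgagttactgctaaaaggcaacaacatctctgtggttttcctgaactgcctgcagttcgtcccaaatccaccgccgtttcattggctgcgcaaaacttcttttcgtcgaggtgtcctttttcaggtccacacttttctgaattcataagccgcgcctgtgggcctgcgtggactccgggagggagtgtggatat

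The first base of the core lay 141 bases before the start in Yap1, 170 bases before it in Wwtr1, 65 bases before it in Amotl2 and 103 bases before it in Ccn1. The same Wwtr1 core lay 136 bases before a second annotated Wwtr1 start. For Ccn2 there was no window, and it was not searched. Ankrd1 held the core at 210 and at 123 bases before the start. In Lats2 the match began 4 bases after the start, and the second annotated Lats2 start had no match in its window. The Myof window held no match. Windows were found for 7 of the 10 pathway genes (all but Tead1, Tead4 and Stk3), and 5 of these held the core in at least 1 window: Yap1, Wwtr1, Tead3, Lats2 and Amotl2. Tead2 and Lats1 had none. Of all 27025 genes with a window, 16.6% held it in at least 1 window. Of the further lists described below, it was in 3 of 20 cascade genes, 7 of 16 input genes and 7 of 15 target genes. Genes differ in their number of windows, and windows of a gene can overlap. By window, the core was in 7 of the 11 windows of the 7 members and in 14.7% of all 32851. No test of these shares was made. A match is a description of the letters in the window and no binding was measured here. Sequence outside the windows was not searched.

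The libraries were even in depth, with 20197642 to 21276090 reads assigned to genes, and 86 of the 17168 tested genes (0.501%) had an adjusted p under 0.05 between mutant and control pools. The test was limma on log2(normalized count + 1), with Benjamini-Hochberg adjustment over all tested genes. This count rested on single pools: it was 1 without control pool 1, 147 without control pool 2, 468 without control pool 3, and 12, 21 and 1 without mutant pools 1, 2 and 3. The groups did not overlap, with mutants higher, in 9.77% of tested genes, and with mutants lower in 10.5%. Control pool 3 stood apart from the other pools: it was the highest or the lowest of the 6 in 49.7% of tested genes, against 24.5% to 37.8% for the other pools, and in 7 of the 10 Hippo genes. Rptor itself was at 2126, 2193 and 2279 in control pools 1 to 3 and 2023, 2137 and 2148 in mutant pools 1 to 3 (log2 fold change -0.06, SE 0.05, adjusted p = 0.584), in RNA from whole lungs of which the epithelium is one part. The 20 epithelial markers had a summed level of 19713 to 23239 normalized counts in control pools and 15732 to 17042 in mutant pools. The log2 fold change was below 0 in 18 of them and above 0 in 2. At an adjusted p under 0.05, 7 were lower and 0 higher. At an unadjusted p under 0.05, 17 were lower and 1 higher, beside 13.6% of all tested genes. The 14 mesenchymal markers tested summed to 98782 to 105439 in control pools and 119838 to 127824 in mutant pools. All 14 had a log2 fold change above 0, 7 of them at an unadjusted p under 0.05 and 4 at an adjusted p under 0.05. In bulk tissue, fewer cells of a type and less RNA per cell cannot be told apart.

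In RNA of whole lungs, transcript levels of the Hippo components differed little between control and mutant pools. None of the 10 had an adjusted p under 0.05 by limma, where 0.501% of all tested genes did, and none by edgeR's quasi-likelihood test on recovered reads, where 79 of 14670 genes (0.539%) did. At an unadjusted p under 0.05 there was 1 of 10, Wwtr1, against 13.6% of all tested genes, and Lats2 joined it when control pool 2 was left out. The log2 fold changes ran from -0.10 (Lats1) to 0.16 (Wwtr1), with 6 above and 4 below 0 and a median of 0.01, beside a median of 0.00 over all tested genes. The 95% intervals of the 10 genes lay between -0.26 and 0.34 on the log2 scale. The widest was that of Tead4, the gene with the fewest reads. The other 9 intervals lay between -0.26 and 0.27, which corresponds to 16.5% lower and 20.3% higher in mutants. These intervals are for RNA of whole lungs and do not bound a change within the epithelium alone.

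**Figure D1:**
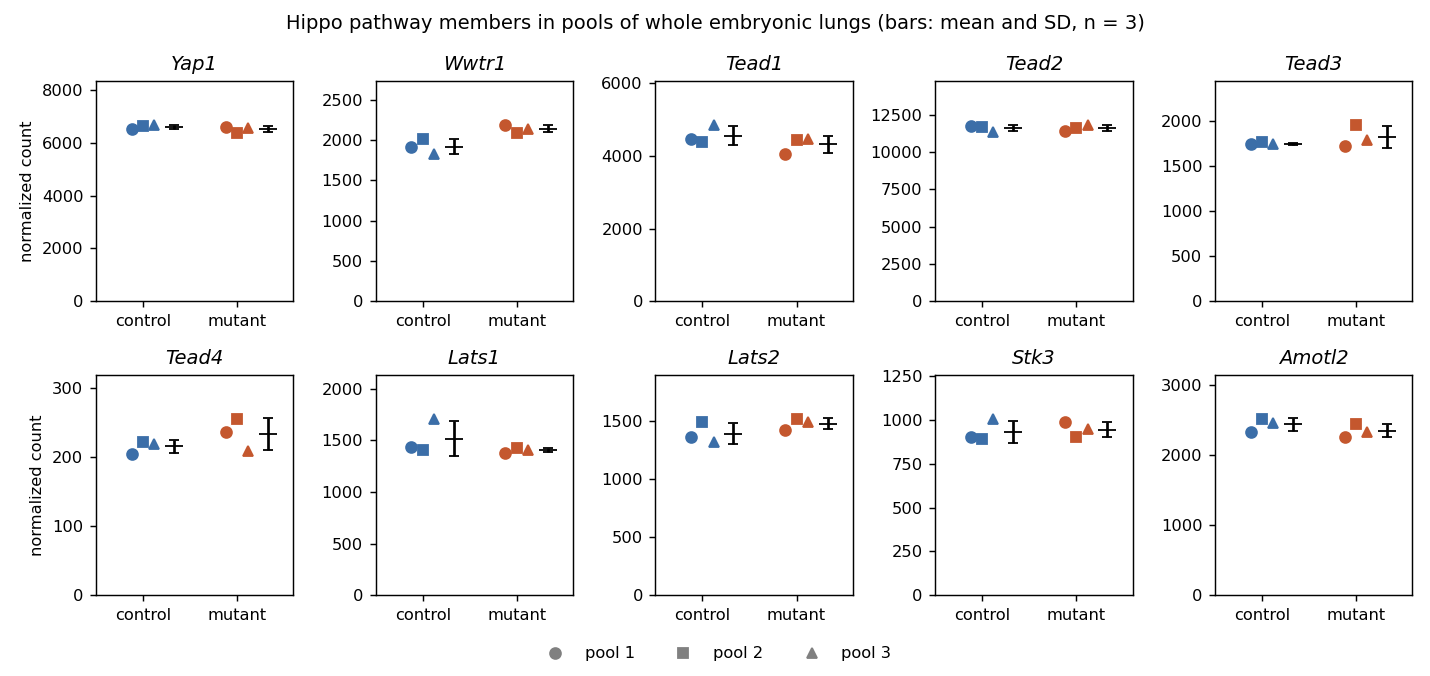
Normalized counts (vertical axes, from 0) of the 10 Hippo genes in each of 3 control (blue) and 3 mutant (orange) pools. Symbols mark the pool number, and the bars give mean and SD (n = 3). The mutant pools lie above all control pools only for Wwtr1, from 2091 to 2184 against 1827 to 2015.

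Of the coactivators, Yap1 was level between the groups and Wwtr1 was the one member of the 10 whose groups did not overlap, beside 9.77% (mutants higher) and 10.5% (mutants lower) of all tested genes. YAP, encoded by Yap1, is the main nuclear effector of the pathway. Its transcript was at 6507, 6618 and 6666 in control pools 1 to 3 and 6582, 6382 and 6569 in mutant pools 1 to 3. The groups overlapped, with means of 6597 ± 81.2 and 6511 ± 112 (SD, n = 3). The log2 fold change was -0.02 (SE 0.04, 95% interval -0.10 to 0.06, adjusted p = 0.864), and its 95% interval in percent of the control level ran from -6.58% to 4.27%.

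TAZ, encoded by Wwtr1, is the paralogue of YAP and binds the same TEAD factors. Wwtr1 was at 1907, 2015 and 1827 in control pools 1 to 3 and 2184, 2091 and 2139 in mutant pools 1 to 3. Every mutant pool was above every control pool, and the group means were 1916 ± 94.2 in controls and 2138 ± 46.1 in mutants. The log2 fold change of 0.16 (SE 0.05, 95% interval 0.05 to 0.27) had an unadjusted p of 0.00803 and did not pass after adjustment over all genes (adjusted p = 0.189 by limma and 0.18 by edgeR). With each of the 6 pools left out in turn the log2 fold change was 0.13 to 0.20 and the adjusted p 0.0911 to 0.494. In the same pools the summed mesenchymal markers were higher and the summed epithelial markers lower in mutants, and their part in the Wwtr1 difference was not tested.

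The TEAD genes, which encode the DNA-binding partners of YAP and TAZ, showed no call in either direction. Tead2, the most abundant of them, was at 11733, 11694 and 11342 in control pools 1 to 3 and 11406, 11607 and 11795 in mutant pools 1 to 3. Control pool 3 was the lowest and mutant pool 3 the highest of the 6, and the groups overlapped almost completely (log2 fold change 0.00, SE 0.04, 95% interval -0.08 to 0.08, adjusted p = 0.989). Tead1 was at 4458, 4378 and 4849.6 in control pools 1 to 3 and 4054, 4449 and 4471 in mutant pools 1 to 3. Its highest value was in control pool 3 and its lowest in mutant pool 1, and the remaining pools lay between 4378 and 4471 (log2 fold change -0.08, 95% interval -0.20 to 0.04, adjusted p = 0.572). Without control pool 3 the Tead1 log2 fold change was -0.03.

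Tead3 had the tightest control group, at 1738, 1758 and 1737 in controls and 1719.6, 1950.1 and 1790.3 in mutants. Mutant pools 2 and 3 were above all controls, and mutant pool 1 was below all of them (log2 fold change 0.06, 95% interval -0.06 to 0.18, adjusted p = 0.673). Tead4 was the least abundant TEAD transcript, at 204, 222 and 219 in controls and 236, 255 and 208 in mutants. Mutant pools 1 and 2 were above all controls and mutant pool 3 lay among them, and the interval of the log2 fold change, -0.12 to 0.34, was the widest of the 10 genes (adjusted p = 0.685).

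The kinases that restrain YAP and TAZ were also within the spread of the pools. Lats1 was at 1433, 1402 and 1708 in control pools 1 to 3 and 1380.4, 1424 and 1410.5 in mutant pools 1 to 3. Control pool 3 lay far above the other 5 pools, which ranged from 1380.4 to 1433 (log2 fold change -0.10, SE 0.07, adjusted p = 0.571), and without that pool the log2 fold change was -0.01. Lats2, which is both a LATS kinase and a transcriptional target of YAP, was at 1365, 1489.7 and 1320.0 in control pools 1 to 3 and 1423, 1518 and 1487 in mutant pools 1 to 3. The groups overlapped through control pool 2, and the log2 fold change was 0.09 (SE 0.06, 95% interval -0.04 to 0.21, adjusted p = 0.541). Without control pool 2 the log2 fold change was 0.14, with an adjusted p of 0.252. Stk3, which encodes the MST2 kinase upstream of LATS, was at 902, 893 and 1007 in control pools 1 to 3 and 988, 902 and 947 in mutant pools 1 to 3. The highest value was again in control pool 3, and both groups spanned about the same range (log2 fold change 0.02, 95% interval -0.12 to 0.16, adjusted p = 0.921).

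Amotl2 encodes an angiomotin-family junction protein that binds YAP and holds it in the cytoplasm, and it is itself a YAP/TAZ target. It was at 2338, 2522 and 2469 in control pools 1 to 3 and 2267, 2455 and 2333 in mutant pools 1 to 3. Mutant pool 1 was the lowest and control pool 2 the highest, and the other pools were intermixed (log2 fold change -0.05, SE 0.05, 95% interval -0.16 to 0.05, adjusted p = 0.669). The 2 members that are also targets thus had fold changes of opposite sign, neither of which passed the test.

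Levels were compared between genes only after division by exon length (union of GENCODE M21 exons, in kilobases). The annotation used for counting is not given, so the order and shares below depend on these lengths. Ranges over pools do not carry that uncertainty. In controls the order was Tead2 (2421 ± 44.9 normalized counts per kilobase, SD, n = 3), Yap1 (713 ± 8.77), Wwtr1 (401 ± 19.7), Amotl2 (388 ± 15.1), Tead1 (336 ± 18.6), Tead3 (259.8 ± 1.79), Lats1 (208 ± 23.1), Lats2 (199.6 ± 12.6), Stk3 (153 ± 10.4) and Tead4 (59.8 ± 2.63). Over all 6 pools the ranges of neighbours in this order overlapped for Wwtr1 (382 to 457) with Amotl2 (361 to 401) and for Lats1 (189 to 234) with Lats2 (189 to 218), and for no other neighbours. Among the 4 TEAD genes, Tead2 made up 77.8% to 79.3% of the summed level per kilobase in every pool, Tead1 9.95% to 11.7%, Tead3 8.36% to 9.33% and Tead4 1.83% to 2.28%. The share of Tead3 was 8.36% to 8.50% in control pools and 8.53% to 9.33% in mutant pools, which did not overlap, and the shares of the other TEAD genes overlapped between the groups. No test was made of these shares.

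**Figure D2:**
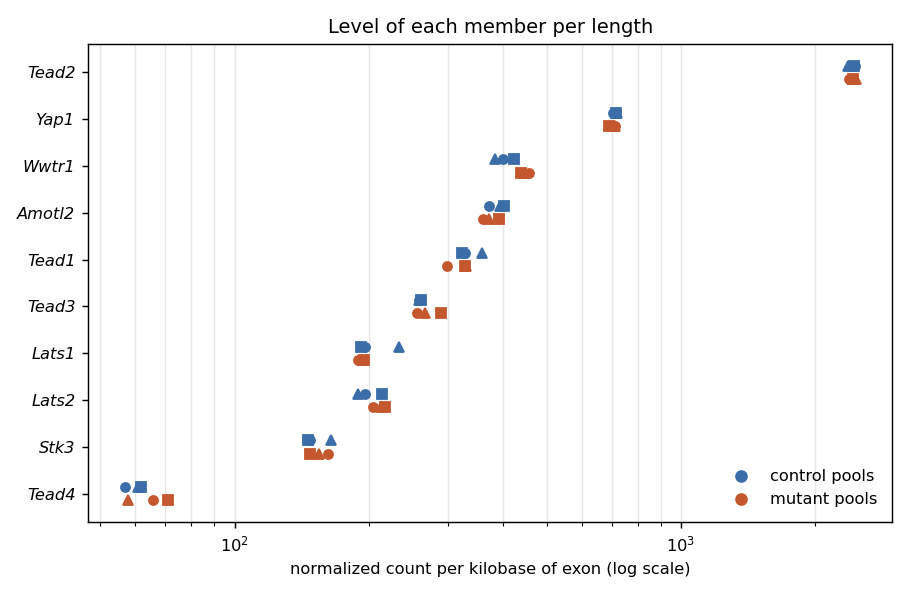
Normalized count per kilobase of exon (horizontal axis, log scale) of each Hippo gene in 3 control (blue) and 3 mutant (orange) pools, ordered by mean level. Tead2 lies at 2369 or above in every pool and Tead4 at 70.9 or below. The order of the means is the same in both groups apart from Lats1 and Lats2, which trade places. That exchange rests on control pool 3. In control pools 1 to 3 Lats1 was at 196.4, 192.1 and 234.0 and Lats2 at 195.9, 213.7 and 189.4.

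The balance between paralogues within a pool does not depend on how libraries were scaled. The log2 ratio of Wwtr1 to Yap1, on normalized counts, was -1.77, -1.72 and -1.87 in control pools 1 to 3 and -1.59, -1.61 and -1.62 in mutant pools 1 to 3. Every mutant pool had the higher ratio, by 0.18 on average. The log2 ratio of Stk4 to Stk3, the 2 MST kinases, was 0.96, 1.09 and 0.88 in controls and 0.81, 0.88 and 0.85 in mutants, a mean difference of -0.13. With 3 pools against 3 a two-sided exact permutation test cannot give a p below 0.1, which both of these ratios reached (0.2 after Benjamini-Hochberg adjustment over the 4 ratios compared). For Lats2 to Lats1 the mean difference was 0.19 (exact permutation p = 0.3, adjusted 0.4), and control pool 3 had the lowest ratio, -0.37. That difference was 0.06 without control pool 3 and 0.29 without control pool 2, and the Stk4 to Stk3 difference was -0.07 without control pool 2. For Tead1 to Tead2 it was -0.08 (exact permutation p = 0.5, adjusted 0.5), and -0.02 without control pool 3 or -0.05 without mutant pool 1.

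The rest of the cascade was examined through 24 further genes: the core components, their scaffolds and upstream kinases, and the degradation machinery of YAP. None had an adjusted p under 0.05 by limma or edgeR, where 0.501% and 0.539% of all tested genes did, and 5 had an unadjusted p under 0.05 (4 higher and 1 lower in mutants). That is 5 of 24 beside 13.6% of all tested genes, and the median log2 fold change was 0.00. With 1 pool other than control pool 3 left out the count was 1 to 3. The groups did not overlap in 5 of the 24, 2 higher in mutants (beside 9.77% of all tested genes) and 3 lower (beside 10.5%). Stk4, which encodes MST1, was at 1757, 1905 and 1852 in control pools 1 to 3 and 1737, 1658 and 1706 in mutant pools 1 to 3. All mutant pools were lower than all controls (log2 fold change -0.11, SE 0.05, adjusted p = 0.338). Sav1, the scaffold that joins MST to LATS, was at 1777, 1806 and 1715 in controls and 1942, 1894 and 1868 in mutants, with all mutant pools higher (log2 fold change 0.11, SE 0.04, adjusted p = 0.32). The partners that bind and activate LATS were at log2 fold changes of 0.07 (Mob1a, adjusted p = 0.571) and -0.22 (Mob1b, adjusted p = 0.378).

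Nf2, which encodes merlin, a membrane-linked activator of LATS, was at 3459, 3536 and 3567 in controls and 3416, 3590.5 and 3523 in mutants, a log2 fold change of 0.00 (95% interval -0.09 to 0.08, adjusted p = 0.97). Among the kinases that can act on LATS beside MST, Map4k3 had a log2 fold change of 0.12 (adjusted p = 0.243) with all mutant pools higher, and Taok3 of 0.23 (adjusted p = 0.328). The KIBRA-family genes, whose products act with merlin, had values of opposite sign, -0.11 for Wwc1 (adjusted p = 0.445) and 0.12 for Wwc2 (adjusted p = 0.331).

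Genes that feed into the pathway or modify it at its ends made up a further list of 23, of which Vgll1 was at 0 in all 6 libraries and 22 were tested. None had an adjusted p under 0.05, and 8 of the 22 had an unadjusted p under 0.05 (3 higher and 5 lower), beside 13.6% of all tested genes. With 1 pool other than control pool 3 left out the count was 4 or 5. The groups did not overlap in 5 of the 22, 1 higher in mutants (beside 9.77% of all tested genes) and 4 lower (beside 10.5%). Llgl2, a basolateral polarity gene of epithelia, was at 622, 649 and 559 in controls and 469, 509.8 and 493 in mutants, with no overlap (log2 fold change -0.31, SE 0.07, adjusted p = 0.114). Crb3, which encodes an apical Crumbs protein of epithelia, was at 325, 338 and 238 in controls and 223, 219.6 and 229.7 in mutants. The control group was wide because control pool 3 lay close to the mutants (log2 fold change -0.40, SE 0.13, adjusted p = 0.202). The summed epithelial markers were lower in the same mutant pools, and their part in the values of Llgl2 and Crb3 was not tested.

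Lix1l, a vertebrate relative of Drosophila lowfat, whose product binds the Fat and Dachsous cadherins, was at 2229.7, 2184 and 2100.2 in control pools 1 to 3 and 2469, 2561 and 2697 in mutant pools 1 to 3. Every mutant pool was higher (log2 fold change 0.25, SE 0.05, 95% interval 0.14 to 0.35), with adjusted p = 0.0617 by limma and 0.0637 by edgeR. Dchs1, the Dachsous cadherin that pairs with Fat4, was at 6084, 6179.9 and 6791 in controls and 6778, 6966 and 7067 in mutants (log2 fold change 0.13, adjusted p = 0.261), and control pool 3 was the one control within the range of the mutants. Without control pool 3, when 468 genes of the whole table passed in place of 86, these 4 genes passed too, with adjusted p of 0.0225 (Lix1l), 0.0129 (Llgl2), 0.00699 (Crb3) and 0.0171 (Dchs1). The other genes of the list with an unadjusted p under 0.05, named after their values were seen, were Patj, Llgl1 and Strn with lower and Wtip with higher mutant values. Vgll4, which competes with YAP and TAZ for TEAD, was at a log2 fold change of -0.13 (adjusted p = 0.397).

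**Figure D3:**
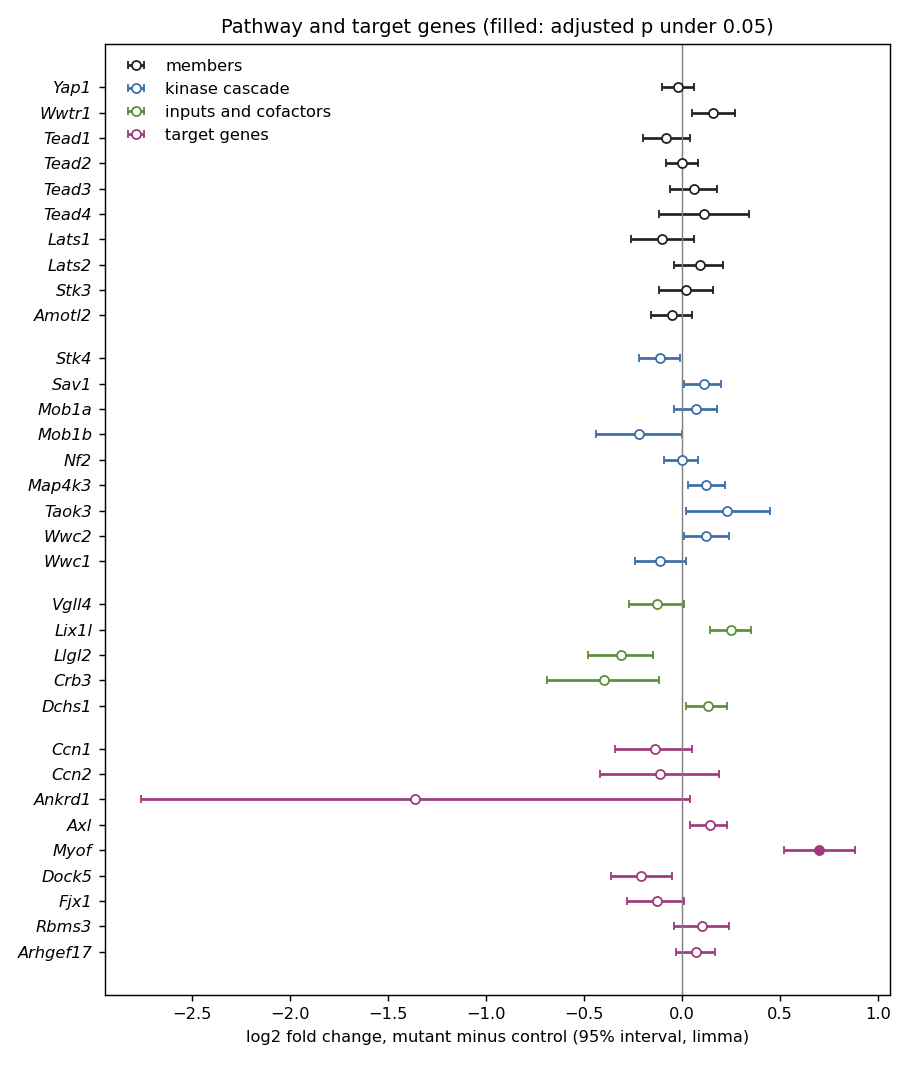
Log2 fold change, mutant minus control, with 95% intervals from limma (horizontal axis) for the Hippo members and the named genes of the cascade, its inputs and its targets. Filled points have an adjusted p under 0.05, which only Myof had, at 0.70, while the 10 members lie between -0.10 and 0.16.

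The 22 YAP/TAZ target genes did not move in a common direction. Their log2 fold changes were above 0 in 12 and below 0 in 10, with a median of 0.02 beside 0.00 over all tested genes. By the adjusted test 1 of the 22 rose and none fell, beside 0.501% of all tested genes called. At an unadjusted p under 0.05 there were 2 higher and 1 lower, 3 of 22 beside 13.6% of all tested genes, a count that became 6 without control pool 2 and 6 without control pool 3. The best known targets, which encode matricellular proteins, were Ccn1 (listed as Cyr61) at 529, 543 and 624 in controls and 558, 469.6 and 507 in mutants and Ccn2 (listed as Ctgf) at 387, 316 and 469 in controls and 389, 313 and 371 in mutants. Both had overlapping groups, with log2 fold changes of -0.14 (SE 0.09, adjusted p = 0.502) and -0.11 (SE 0.14, adjusted p = 0.759). For Ccn2 the sign rested on control pool 3, without which the log2 fold change was 0.03.

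Ankrd1, an ankyrin-repeat protein and classical YAP target, was scarce, at 18.7, 8.26 and 45.7 in control pools 1 to 3 and 15.3, 2.94 and 6.87 in mutant pools 1 to 3. The control values spanned more than the difference between the groups, and the log2 fold change of -1.36 had an interval of -2.76 to 0.04 (adjusted p = 0.383). It was -0.76 without control pool 3, -0.85 without mutant pool 2, -1.87 without mutant pool 1 and -1.93 without control pool 2. The groups did not overlap in the last 2 of these (adjusted p = 0.372 and 0.149). In the same libraries the 6 heart muscle markers summed to 1073 to 1202 in control pools and 856 to 933 in mutant pools. Their part in the Ankrd1 difference was not tested. Axl, a receptor tyrosine kinase, was higher in all mutant pools, at 2816, 3023 and 3044 in controls and 3209, 3250.2 and 3305 in mutants (log2 fold change 0.14, SE 0.04, adjusted p = 0.202).

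Myof, which encodes myoferlin, a membrane protein of vesicle fusion and membrane repair, was the target gene that rose. It was at 577, 649.8 and 575 in control pools 1 to 3 and 1069, 880.5 and 989 in mutant pools 1 to 3. The lowest mutant value was well above the highest control value, and the means were 600.3 ± 42.9 and 979.5 ± 94.5 (SD, n = 3). The log2 fold change was 0.70 (SE 0.08, 95% interval 0.52 to 0.88, adjusted p = 0.0112 by limma and 0.0134 by edgeR). With each pool left out in turn the log2 fold change was 0.64 to 0.78, and the adjusted p was 0.192 without control pool 1, 0.0703 without mutant pool 1 and 0.108 without mutant pool 3. Its promoter window, printed above, held no TEAD core, and sequence outside that window was not searched. The summed mesenchymal markers were higher in the same pools, and their part in the Myof difference was not tested.

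Of the remaining targets, Dock5, an activator of the GTPase Rac, was lower in all mutant pools, at 407, 411 and 403 in controls and 341, 357 and 358 in mutants (log2 fold change -0.21, adjusted p = 0.218). Fjx1, a relative of the four-jointed kinase that modifies Fat and Dachsous, was also lower in all mutant pools (log2 fold change -0.13, adjusted p = 0.412). Rbms3, an RNA-binding protein gene, and Arhgef17 had values of 0.10 and 0.07 with overlapping groups (adjusted p = 0.521 and 0.562). In all, the groups did not overlap in 4 of the 22 targets, 2 higher (beside 9.77% of all tested genes) and 2 lower (beside 10.5%).

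Across the 76 tested genes of the 4 Hippo lists together, each counted once, 1 had an adjusted p under 0.05 (0.501% of all tested genes did), 17 had an unadjusted p under 0.05 (13.6% of all), and the median log2 fold change was -0.01. Medians of the cell type marker lists in the same libraries ranged from near 0 to well away from it. The median log2 fold change was -0.44 over the epithelial markers and 0.20 over the mesenchymal markers. By the adjusted test Cdh1, Krt8, Krt18, Cldn4, Cldn6, Grhl2 and Spint1 fell, and Fgf10, Col1a1, Col1a2 and Col3a1 rose. The medians were 0.29 for smooth muscle, 0.20 for endothelium, 0.20 for mesothelium and 0.12 for macrophages. They were -0.02 for neural cells, 0.00 for red cells and -0.24 for heart muscle. Wt1, a mesothelial marker, also rose by the adjusted test. Epithelial and mesenchymal genes thus had medians of opposite sign in RNA where the Hippo members had a median of 0.01. Members and marker lists were chosen with earlier results of these data known, so this contrast is a description and no independent support.

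**Figure D4:**
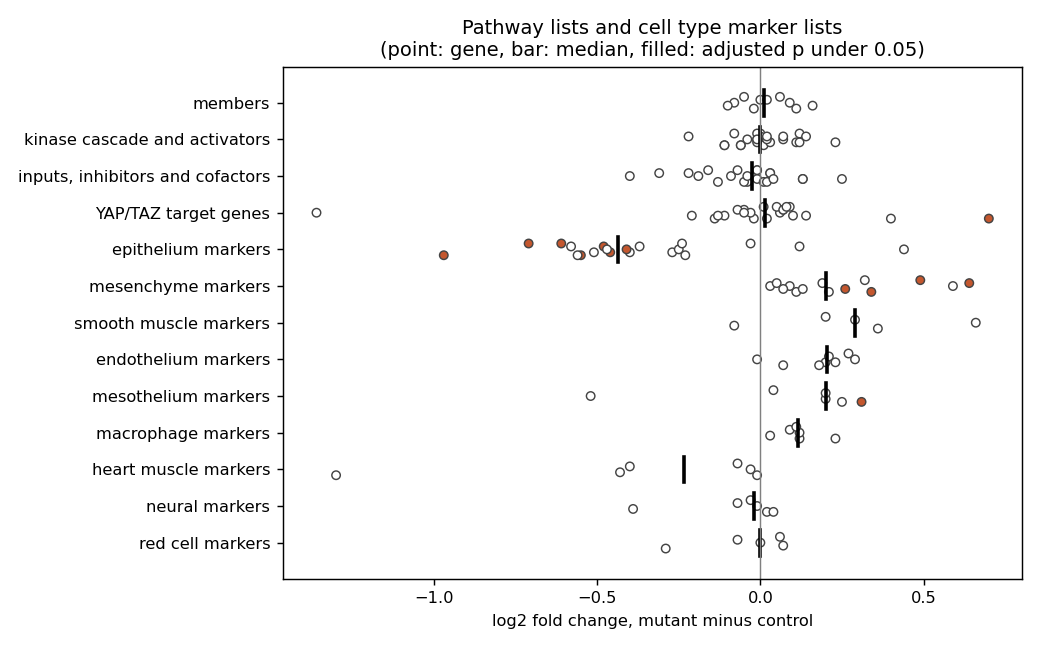
Log2 fold change, mutant minus control (horizontal axis), of each gene (points) in the 4 Hippo lists and 9 cell type marker lists, with the median as a bar and genes with an adjusted p under 0.05 filled. The Hippo lists centre between -0.03 and 0.02, the epithelial markers at -0.44 and the mesenchymal markers at 0.20.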

How the data were processed

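RNA from pools of whole lungs at 11.5 dpc was sequenced in 3 control and 3 mutant libraries. The authors deposited a signal per gene and library, the reads scaled by each library's size factor (normalized counts). The submitters' processing notes name Trim Galore, HISAT2, featureCounts, DESeq2 and the build mm10, with no version, and the annotation and the strand setting are not given in the sources used here, so that reads of overlapping or antisense genes could not be told apart. Every value was a whole multiple of 1 step per library (100% within a tolerance of 0.001), so the whole reads were recovered in all 6 libraries. The deposited table also holds the authors' mean, fold change and p-value columns, which were not used.

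The main test was limma 3.58.1 (R 4.3.3, variance trend) on log2(normalized count + 1), two-sided, over genes that reached a value of 1 in 3 or more libraries. Benjamini-Hochberg adjustment was over all tested genes, with a threshold of 0.05. Fold changes of scarce genes are understated on this scale. The alternatives were edgeR 4.0.16 (quasi-likelihood test, TMM, filterByExpr) on the recovered reads, upper-quartile scaling, no filter, a value of at least 10 in every library, a pseudocount of 0.1, limma without the trend, the replicate number as a block, and leaving out each library. Ratios were tested by exact permutation over pools. The script was checked on simulated data. Intervals of 95% are from limma. Replicates are separate pools. The limma p-values set the mutant minus control difference against a variance between pools that is shrunk towards a trend over all genes. Whether pools share litters is not given in the sources used here.

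The members and gene lists were chosen with earlier results of these data known, among them the rise of Myof, which is therefore no independent support. Named genes were the 10 members, Stk4, Sav1, Mob1a, Mob1b, Nf2, Ccn1, Ccn2, Ankrd1, Axl, Myof, Vgll4 and Rptor, any other listed gene with an adjusted p under 0.05, and from each of the 3 further pathway lists the 4 other genes with the lowest unadjusted p. Patj is listed as Inadl. Of the markers, Dpt was at 0 in all libraries and Muc16 was not analysed here.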

Additional observations from a re-analysis of the deposited data

How the results depend on the processing

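None of the 10 Hippo members passed the adjusted test under any of the 13 alternatives run, counting each library left out, and with each library left out the median log2 fold change was 0.00 to 0.02 over the members and -0.03 to 0.04 over the targets. Some counts moved with limma without the trend, with the replicate block or with single pools left out. Without the trend, 8 genes of the whole table passed, no target passed, and the counts at an unadjusted p under 0.05 were 1 for the kinase list and 3 for the inputs list. The cause was not tested. With each library left out in turn, the whole table gave 1 to 468 passing genes, the members 1 to 2 genes at an unadjusted p and 2 to 3 with groups that did not overlap, the kinase list 1 to 6, the inputs list 4 to 6, and the targets 0 to 1 passing and 3 to 6 at an unadjusted p. Groups that do not overlap become more frequent by construction with fewer pools, and no share over all genes was computed for these settings.

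The control and mutant pools share replicate numbers. Deviations of same-numbered pools from their group means had correlations of -0.02, 0.10 and 0.03. With 3 pools per group these values cannot show whether same-numbered pools share litters or processing. Not every pool correlated best with its own number. With the replicate block, 71 genes of the whole table passed in place of 86, no member passed, and the kinase list had 1 gene at an unadjusted p. Alternative scalings, filters and pseudocounts moved the median of all genes by less than 0.01 on the log2 scale. Precision is limited by 3 pools per group, and for Ankrd1 the control pools alone ranged from 8.26 to 45.7 normalized counts.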
